A study of Homo sapiens with 3 samples.

Results

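Cells of RWPE1 carrying a constitutively active PI3K mutant were set against cells of the same line carrying only the empty vector PMN, gene by gene, on 1 Illumina array each. RWPE1 is an established line of benign prostate epithelium. The mutant, E545K, alters the catalytic subunit of phosphoinositide 3-kinase. Both sub-lines went through retroviral infection, grew in the same serum-free keratinocyte medium with pituitary extract and EGF, and had no treatment before harvest, per the labels. Nothing in the labels says whether a sub-line was a pool or 1 clone, and the third array of the series, of MYC-overexpressing cells, is not described here. With 1 array a side no difference below has a replicate check, no test was made and no p-value is given.

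Of 21834 probes with 1 gene symbol, 9210 were kept because they stood above background on at least 1 of the 2 arrays. A probe counted as above background at a detection value over 0.99 on the vector array, or at a signal over a fixed limit on the PI3K array. The kept probes stand for 8134 of the 16922 genes with a named probe, each represented by its brightest kept probe. Of these genes, 7197 were above background on both arrays, 704 on the vector array only and 233 on the PI3K array only. That limit fell between a probe at 283.9, left out, and one at 284.03, kept. Among probes below background on the vector array, 274 lay within 10% under that limit and 153 within 10% over it. The lowest signal above background on the vector array was 233.3. A gene between that signal and the PI3K limit on both arrays could thus count as vector only, which favours that group. Values are log2 differences, PI3K minus vector, so that 1 is 2-fold. Signals of the PI3K array are rebuilt on the scale of the vector array, and brightness is comparable between arrays for 1 probe but not between probes.

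Class I PI3K turns the membrane lipid PIP2 into PIP3, which recruits the kinases PDPK1 and AKT. AKT restrains the FOXO transcription factors and, through the TSC complex and RHEB, releases the growth regulator mTOR. In the prostate, basal cells line the outer side of the epithelium and express KRT5, KRT14 and KRT15, and NOTCH signals act in the choice between basal and luminal fates. No named probe of PIK3CA, the gene that the mutation affects, was on the array, so the array does not show the transgene itself.

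Promoter sequence is printed for 5 windows, of genes whose families are described below and stood apart on the 2 arrays or among themselves. The windows run from 250 bases before to 50 after each gene's start, 5′ to 3′ on the gene's strand, from RefSeq on GRCh38. HES1 (chr3:194135898-194136197, + strand) and HES4 (chr1:1000048-1000347, - strand) encode repressors that NOTCH can induce. Capitals mark the CSL site GTGGGAA, the motif of the NOTCH partner RBPJ, searched on both strands. It occurs in 6.25% of 35116 promoter windows of this length. Each of these windows holds 1 match, 85 and 77 bases before the start. The windows of HES2, HES6 and HES7 hold 0.
HES1: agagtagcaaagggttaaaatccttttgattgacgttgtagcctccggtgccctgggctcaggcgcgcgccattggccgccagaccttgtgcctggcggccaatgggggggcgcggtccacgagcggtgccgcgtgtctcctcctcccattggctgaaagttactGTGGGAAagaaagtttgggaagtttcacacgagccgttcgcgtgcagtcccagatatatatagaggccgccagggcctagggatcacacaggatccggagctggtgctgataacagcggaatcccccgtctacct
HES4: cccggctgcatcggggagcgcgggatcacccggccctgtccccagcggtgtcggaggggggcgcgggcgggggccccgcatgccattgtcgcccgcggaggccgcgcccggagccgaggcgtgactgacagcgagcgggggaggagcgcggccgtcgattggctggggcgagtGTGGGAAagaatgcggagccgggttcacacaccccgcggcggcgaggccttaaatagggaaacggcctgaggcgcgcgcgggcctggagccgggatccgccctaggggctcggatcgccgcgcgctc

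The second pair belongs to the metallothioneins MT2A (chr16:56608334-56608633, + strand) and MT1X (chr16:56682220-56682519, + strand), small proteins that bind zinc and other metals. Capitals mark the core of the metal response element, TGCGCNC or TGCACNC on either strand, which the zinc-sensing factor MTF1 binds. At least 1 match occurs in 29.6% of all windows and 4 or more in 0.601%. MT2A holds 8 matches and MT1X 4, none of them overlapping.
MT2A: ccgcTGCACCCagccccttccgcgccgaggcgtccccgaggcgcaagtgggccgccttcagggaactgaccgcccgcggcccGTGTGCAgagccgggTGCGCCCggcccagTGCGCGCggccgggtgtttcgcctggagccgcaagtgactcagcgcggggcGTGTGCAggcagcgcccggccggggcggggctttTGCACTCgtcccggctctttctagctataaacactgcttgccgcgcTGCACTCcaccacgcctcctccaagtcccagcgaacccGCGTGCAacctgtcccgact
MT1X: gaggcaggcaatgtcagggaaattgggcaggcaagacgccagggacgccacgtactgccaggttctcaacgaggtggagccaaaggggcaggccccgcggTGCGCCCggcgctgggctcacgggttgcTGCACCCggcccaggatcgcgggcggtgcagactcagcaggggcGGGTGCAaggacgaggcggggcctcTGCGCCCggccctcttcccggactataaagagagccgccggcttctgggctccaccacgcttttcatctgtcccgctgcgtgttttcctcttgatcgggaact

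The last window is shared by SNRPN and SNURF (chr15:24954737-24955036, + strand), which are read from 1 imprinted transcript, and no capitals are set in it. It holds 18 CpG dinucleotides, against a median of 14 over all windows. Of 4 windows that the table gives SNRPN, this one is shown.
SNRPN: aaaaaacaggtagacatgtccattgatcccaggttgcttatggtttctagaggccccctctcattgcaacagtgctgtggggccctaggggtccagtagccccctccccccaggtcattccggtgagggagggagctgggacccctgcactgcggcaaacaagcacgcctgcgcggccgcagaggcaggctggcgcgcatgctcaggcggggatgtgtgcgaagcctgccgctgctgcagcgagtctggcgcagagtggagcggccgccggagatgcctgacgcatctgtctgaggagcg

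Outside the interferon and sterol lists, 271 of 8031 genes were at least 2-fold lower on the PI3K array and 90 at least 2-fold higher. The background shares are 3.37% lower and 1.12% higher there, and over all 8134 genes 329 lower (4.04%) and 98 higher (1.2%). The median difference over all genes was 0.05, and 55.1% of genes lay above 0, or 55.6% outside those lists. The rule favours a gene kept through 1 array only being brighter on that array, so counts that hold such genes are partly set by the selection. With those genes at the lowest fold that their background allows, 205 were 2-fold lower (2.55%) and 75 higher (0.934%) outside the interferon and sterol lists, and 259 (3.18%) and 82 (1.01%) over all genes. Calls spread over the whole range of brightness. With all undetected genes included, 17 of the 64 list medians described changed sign, among them those of keratins, matrix proteins, aldo-keto reductases and luminal markers. Over 4 equal groups of genes, from the dimmest to the brightest, the median was 0.05, 0.05, 0.04 and 0.07.

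**Figure D1:**
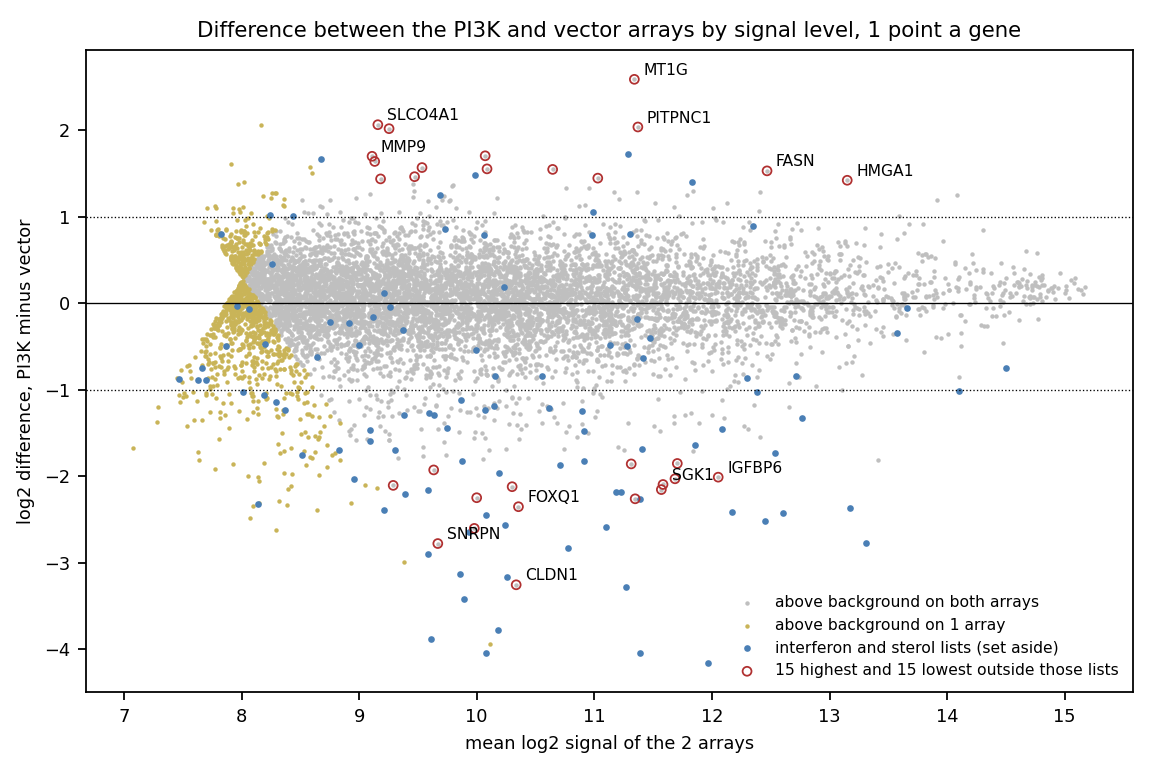
Log2 difference, PI3K minus vector, of each gene (y axis) against its mean log2 signal on the 2 arrays (x axis). Dotted lines mark 2-fold, blue points are the interferon and sterol genes that are set aside, and red rings mark the 15 highest and 15 lowest genes outside them, from MT1G at 2.59 to CLDN1 at -3.25.

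The error that a single array holds is that between probes of 1 gene. For 758 genes with a pair of probes above background on both arrays, the SD of a difference was 0.23 and the median gap between the probes was 0.16. The brightest probe was 2-fold apart in 21 of these genes, and the second probe then had the same sign in 20 and was also 2-fold apart in 12. In 6 genes the probes were more than 1 apart, the widest being the interferon gene IFI6 at -4.05 and 0.31. This error leaves out the spread between cultures, RNA preparations and hybridisations, which was not measured. In RNA from a whole culture, fewer cells of a type and less RNA per cell cannot be told apart.

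**Figure D2:**
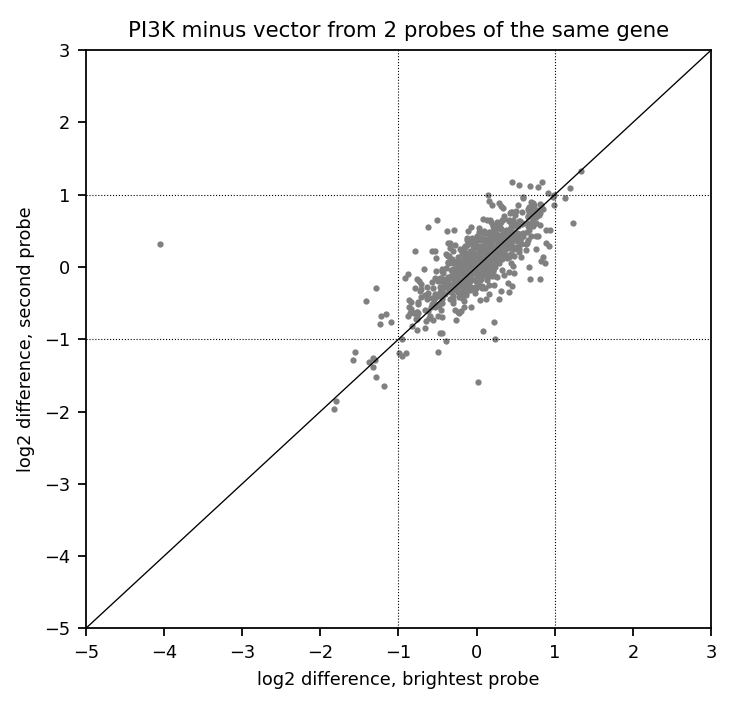
Log2 difference, PI3K minus vector, from the second brightest probe (y axis) against that from the brightest (x axis) for 758 genes. Points near the diagonal are genes whose probes gave like values, dotted lines mark 2-fold, and the point far to the left is IFI6.

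The highest genes above background on both arrays were a mixed group led by a metallothionein. MT1G had a signal of 1056 on the vector array and 6363 on the PI3K array, a difference of 2.59. SLCO4A1, a transporter of organic anions, went from 279.4 to 1170 (2.07). PITPNC1, a carrier of phosphatidylinositol between membranes, went from 1306 to 5367 (2.04). Its second probe, at background on the vector array, was at least 2.07-fold higher. AKAP12, a scaffold that holds protein kinase A, had 303.3 and 1230 (2.02). The next were the phosphatase and actin regulator PHACTR3 (1.71), the gelatinase MMP9 (1.70), the chromatin protein HMGA2 (1.64), the retroviral envelope gene ERVMER34-1 (1.57) and the cytidine deaminase CDA (1.56). The lipid enzymes ACLY and FASN followed at 1.55 and 1.53, and the decoy receptor TNFRSF6B, the glycolytic ALDOC, the lipoprotein receptor LRP8 and HMGA1 lay between 1.42 and 1.46. All 15 were above background on both arrays, so these are folds between 2 signals and not bounds. No background was subtracted here, and the median probe on the vector array read 158.9. The folds of dim genes such as SLCO4A1 may therefore be too small.

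The lowest genes included a tight-junction protein, a basal keratin and several secreted regulators. CLDN1, which seals tight junctions, had a signal of 3991 on the vector array and 418 on the PI3K array, a difference of -3.25. SNRPN, a splicing protein from the imprinted locus shown above, had 2131 and 311 (-2.78). CRIP1, a LIM-domain protein, lay at -2.60, the forkhead factor FOXQ1 at -2.35 and the aldehyde dehydrogenase ALDH3A1 at -2.26. KRT15 lay at -2.25, the matricellular CCN2 at -2.15, the retinal reductase DHRS3 at -2.12, FAM43A at -2.10 and the kinase SGK1 at -2.09. The differentiation inhibitor ID1 (-2.03), IGFBP6 (-2.01), TFCP2L1 (-1.93), NCOA7 (-1.86) and the WNT antagonist SFRP1 (-1.85) completed the 15 lowest. A dim second probe of ID1 was at least 1.49-fold lower. The ranking leaves out Y-linked genes and XIST, which are not reported here.

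For genes above background on 1 array the fold is a lower bound. KLK5, an epidermal serine protease, was at least 15.3-fold lower on the PI3K array, from a signal of 4341. Its other probes, also at background on the PI3K array, were at least 12.5-fold and at least 1.11-fold lower. The calcium-binding S100P was at least 6.62-fold lower and the glucuronosyltransferase UGT1A6, whose probes may also read other UGT1A transcripts, at least 4.20-fold. CAVIN2, MXRA5, ZIC2, HSH2D and KLHDC8B were at least 3.86-fold to 2.88-fold lower, in that order. In the other direction the bounds were smaller: at least 2.83-fold higher for FUOM, 2.80-fold for the secretory-granule protein SCG5 and 2.51-fold for the actin bundler LCP1. ALX1, SYCP2, TGM2, LRP3 and SNX10 were at least 2.07- to 2.14-fold higher.

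Outside the interferon and sterol lists, 3.37% of genes were at least 2-fold lower and 1.12% higher. These shares stand beside each list count below. Genes of the interferon and sterol lists are left out of every list below, whatever family they belong to. Among components of the PI3K, AKT and mTOR pathway, 3 of 32 measured genes had a signal at least 2-fold lower and 0 higher. The median was 0.09. The 3 were SGK1, a kinase activated by the same upstream kinases as AKT, at 6344 on the vector array and 1486 on the PI3K array, IRS2 at 2343 and 1029 (-1.19), and the pseudokinase TRIB2, at least 1.89-fold lower. IRS2 carries the insulin receptor's signal to PI3K. The regulatory subunit PIK3R1 had 2081 and 1101 (-0.92), but its second probe, above background on both arrays, gave -0.15. The PIP3 phosphatase INPP5D had 906 and 535 (-0.76), and RHEB and EIF4EBP1 were both at -0.68. The core kinases lay nearer to the median of all genes: AKT1 at 0.33, MTOR at 0.32, PDPK1 at -0.01, RPS6KB1 at 0.38, RPS6KB2 at 0.13 and SGK3 at 0.21 (second probe -0.06). EIF4E, the cap-binding factor, was the highest at 0.78, followed by the phosphatase INPP4B at 0.71, and by GSK3B and INSR, both at 0.57. AKT1S1 was at least 1.46-fold higher. The remaining adaptors and subunits IRS1, PIK3CD, PIK3R4, MLST8, MAPKAP1, INPPL1, EIF4EBP2, TSC1, RPS6, SESN1, SESN2, TRIB1, TRIB3 and DDIT4 lay between -0.33 and 0.39. In the wider list of phosphoinositide enzymes and transfer proteins, 1 of 44 was at least 2-fold higher, PITPNC1, and 2 lower, the phospholipases PLCE1 and PLCD1, whose bounds are at least 1.26- and 1.85-fold.

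Genes that FOXO factors are known to activate leaned lower, with 5 of 27 at least 2-fold lower, 0 higher, 8 above 0 and a median of -0.19. PDK4, which restrains pyruvate oxidation, was at least 1.64-fold lower. FBXO32, a ubiquitin-ligase subunit, had 822 on the vector array and 286 on the PI3K array (-1.52), but its second probe was too dim for a fold. The repressor BCL6 lay at -1.30 and KLF6 at -1.01, and IRS2 belongs here too. SOD2 (-0.95, second probe -1.23), CITED2 (-0.84), YPEL3 (-0.80) and GADD45A (-0.77) also had lower signals, whereas CDKN1B (0.47), CCNG2 (0.56) and INSR (0.57), other textbook FOXO targets, had higher ones.

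Of 22 NOTCH genes, 6 were at least 2-fold lower, 0 higher and 5 above 0, and the median was -0.35. They span the pathway from ligand to target. The receptor NOTCH1 had 4385 on the vector array and 1351 on the PI3K array (-1.70). The ligand DLL1 was at least 2.44-fold lower and the receptor NOTCH3 at least 1.37-fold. Among the HES repressors, HES4 had 6628 and 2031 (-1.71), HES1 had 1008 and 418 (-1.27) and HES2 had 1104 and 516 (-1.10), while HES7 lay at -0.08 and HES6 was at least 1.08-fold lower. HES1 and HES4 carry the CSL letters in the windows printed above and HES2 does not. The ligands JAG2 and JAG1 lay at -0.71 (second probe -0.30) and -0.59. At the other end, the presenilin PSEN2 lay at 0.99 and the coactivator MAML1 at 0.55, and RBPJ, the DNA-binding partner itself, at 0.11.

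**Figure D3:**
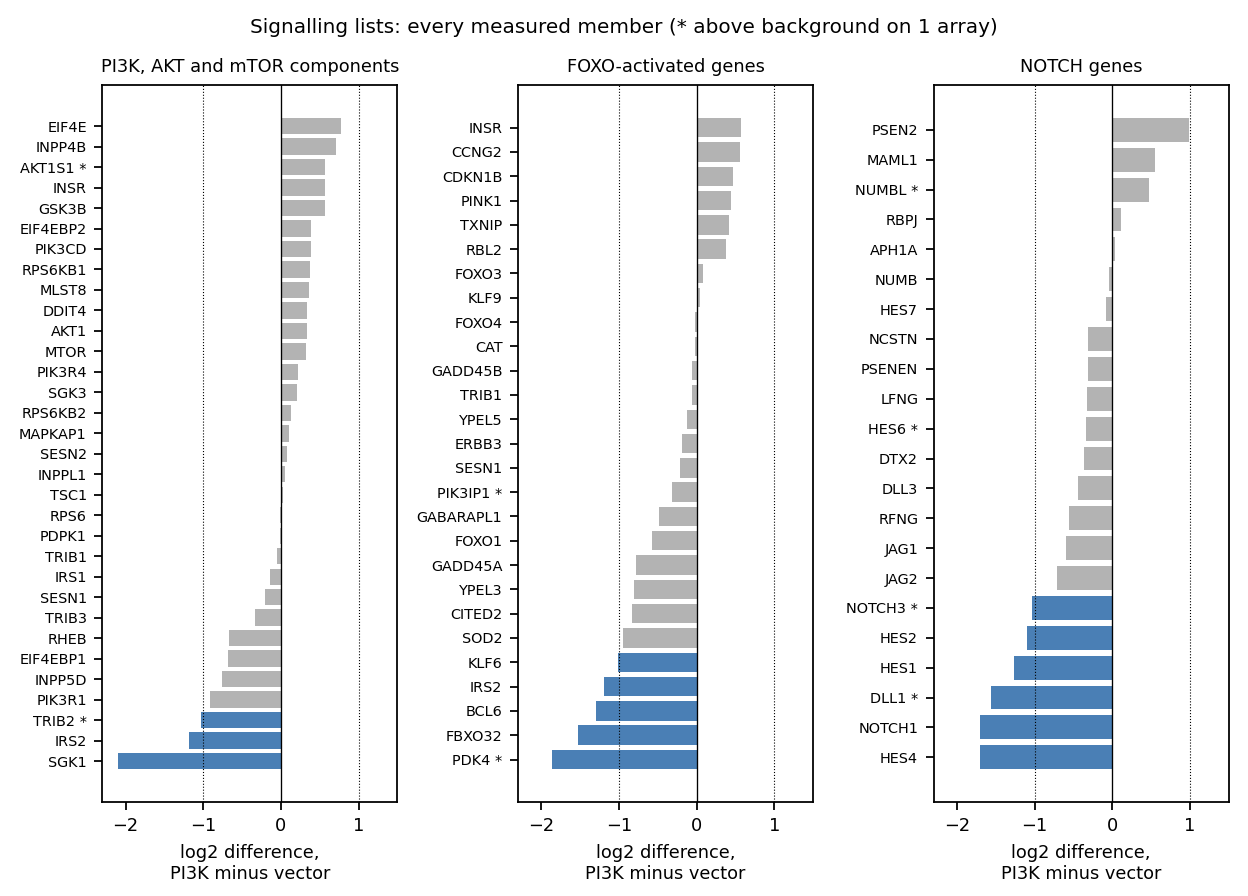
Log2 difference, PI3K minus vector, of every measured member of the PI3K, AKT and mTOR list, the FOXO-activated list and the NOTCH list (1 bar a gene, bars from 0). Blue bars are at least 2-fold lower, dotted lines mark 2-fold and a star marks a gene above background on 1 array; 3, 5 and 6 bars are blue.

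Among WNT genes, the secreted antagonist SFRP1 and the secreted protein DKK3 were low. SFRP1 had 6343 on the vector array and 1758 on the PI3K array (-1.85), and DKK3 had 6989 and 2780 (-1.33, second probe -1.39). NKD2, an intracellular inhibitor, was at least 1.26-fold lower. In all, 3 of 16 were at least 2-fold lower and 0 higher. The median was -0.04, and 0.08 over the 12 measured on both arrays, so that the list as a whole had no clear side. The frizzled receptor FZD2 was the highest at 0.62.

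In the TGF-beta, activin and BMP list, 3 of 24 genes lay at least 2-fold below the vector array and 0 above it, and the median was -0.19. ID1 and ID3, inhibitors of helix-loop-helix factors and known BMP targets, had 6654 and 1631 and 2885 and 1077 (ID3 at -1.42). GDF15, a stress-induced ligand, had 5038 and 1812 (-1.48). FSTL1 (0.72), the matrix protein TGFBI (0.67) and the receptor ACVR2A (0.55) were the highest.

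Immediate early factors were mostly lower, and the feedback genes of ERK signalling were split. Of 23 AP-1 and immediate early genes, 3 were at least 2-fold lower, 0 higher and 5 above 0, with a median of -0.36. KLF4 had 3319 and 1173 (-1.50), ATF3 lay at -1.05 and KLF6 at -1.01, FOSB at -0.94 and FOS at -0.70, but EGR1, from the same early response, lay at 0.55 and JUNB at 0.38. Of 22 ERK feedback genes, 2 were at least 2-fold higher, HMGA2 and the ETS factor ETV4 (1.13, second probe 0.96), and 0 lower. ETV5 lay at 0.79, DUSP6 at 0.18 and SPRY2 at 0.01, against -0.92 for PHLDA1 and -0.82 for the endogenous MYC probe, from 6229 to 3520.

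Receptors of the EGF family were level between the arrays, with EGFR and ERBB2 both at 0.03. Their ligand HBEGF had 2380 and 1022 (-1.22) and LRIG1, which lowers the receptors at the membrane, had 803 and 290 (-1.47). These were the 2 of 14 that were at least 2-fold lower.

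TNF receptors lay on both sides. TNFRSF6B (427 and 1179) and CD40 (329 and 768, 1.22) were at least 2-fold higher, and TNFRSF8 was at least 1.57-fold higher. TNFRSF21 had 7913 and 3498 (-1.18) and TNFRSF14 was at least 1.72-fold lower. Of the death receptors, TNFRSF10A was at least 1.57-fold lower and TNFRSF10B lay at -0.76. Counting these, 3 of 16 were 2-fold higher and 2 lower.

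Interleukins, chemokines and their receptors outside the interferon list lay evenly on both sides, with 13 of 26 above 0. The chemokines CXCL10 (at least 4.77-fold lower) and CCL5 (1246 and 509, -1.29) were set aside with the interferon list. Some of the 26 members stood far from the rest. CCL2, which attracts monocytes, was at least 2.73-fold lower and IL6 at least 2.09-fold. CXCL8 had 1612 and 658 (-1.29), CXCL2 had 1662 and 717 (-1.21), and the decoy receptor IL13RA2 lay at -1.51. IL18 lay at 0.01, IL1A at 0.00 and IL1B at 0.15. CCL20 lay at 0.76 and the receptor IL27RA, with 755 and 1762, was the 1 of 26 that was at least 2-fold higher, against 5 lower. Of 9 IGF-related binding proteins, IGFBP6 had 8528 and 2118 and IGFBP4 was at least 1.40-fold lower, while the RNA-binding IGF2BP2 and IGF2BP3 lay at 0.49 and 0.53.

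Among 28 targets of YAP and SRF, which follow cell shape and tension, the members stood on opposite sides. CCN2 had 6410 and 1441, CCN1 lay at -0.62 and the ectonucleotidase NT5E at -1.24. THBS1, also a YAP target, had 2817 and 6030 (1.10), and ACTN1, TAGLN2 and F3 (tissue factor) lay at 0.86, 0.85 and 0.66. The median was 0.20, with 1 at least 2-fold higher and 2 lower.

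Metallothioneins, which buffer zinc and copper, did not differ as 1 family. MT1G stood alone at 2.59. MT1E had 15079 on the vector array and 27240 on the PI3K array (0.85), MT2A had 28255 and 36059 (0.35), MT1F had 2640 and 2373 (-0.15) and MT1X had 21826 and 18343 (-0.25). MT1H was just above background on the vector array only, at 262 and 258. These genes are near-identical copies on chromosome 16, so a probe may read more than 1 of them. MT2A and MT1X both carry metal response elements in the windows printed above and lay at 0.35 and -0.25. Both values are near the technical SD of 0.23, so their opposite signs do not set the genes apart. The window of MT1H, not printed, holds 8 matches, but that gene was too dim for a fold. Of 14 zinc transport genes, 1 was at least 2-fold higher, the importer SLC39A10 (263 and 543, 1.04), and 0 lower. SLC30A1, the zinc exporter at the cell surface, lay at -0.74 and MTF1 at 0.15.

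**Figure D4:**
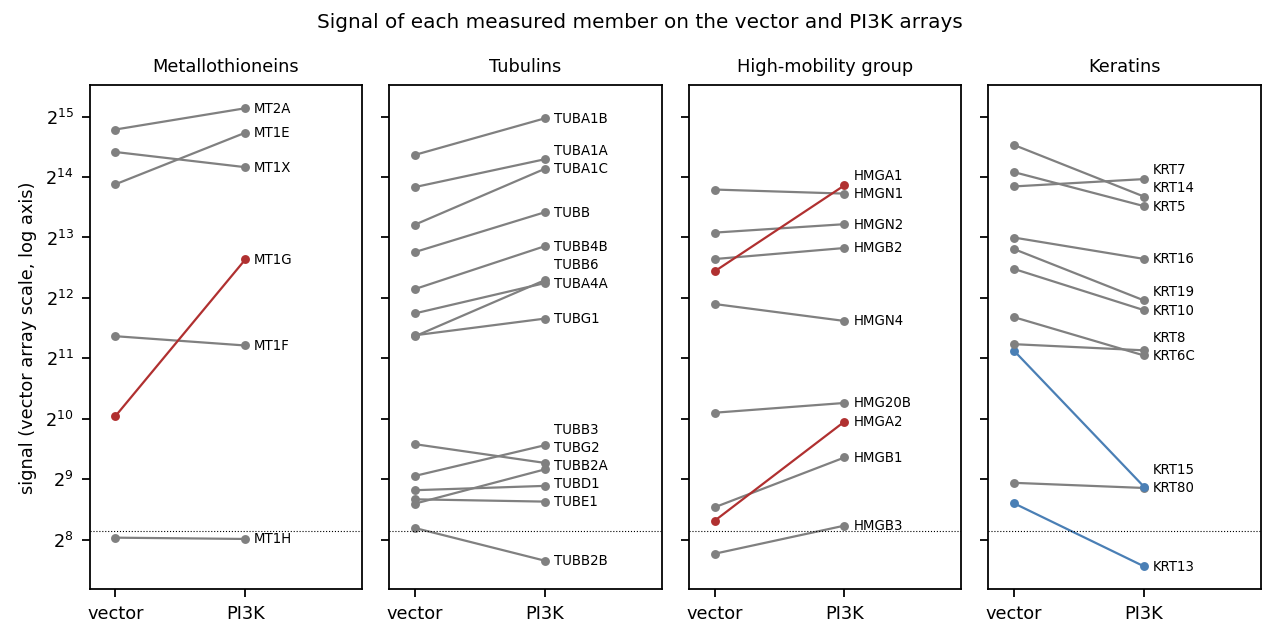
Signal on the vector and PI3K arrays (log axis, vector array scale) of every measured metallothionein, tubulin, high-mobility group protein and keratin, 1 line a gene. Red lines are at least 2-fold higher, blue lines at least 2-fold lower, and the dotted line is the background limit of the PI3K array; MT1G climbs from 1056 to 6363 while MT1X slopes down.

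Cytoskeletal families differed in how many of their members were higher. Of 14 tubulins 11 lay above 0, with a median of 0.50 and none 2-fold apart. TUBB6 lay at 0.93 (second probe 0.29), TUBA1C at 0.92, TUBB4B at 0.71 and TUBA1B at 0.60. The lowest of those measured on both arrays was TUBG2 at -0.31. Tubulin isotypes share much of their coding sequence, so their probes may not be independent. Of 44 actins and actin-binding proteins, 31 lay above 0, the median was 0.24 and 3 were at least 2-fold higher: PHACTR3, LCP1, whose bound is given above, and the membrane linker moesin, MSN (2375 and 4803, 1.02). ACTB lay at 0.59 and ACTN1 at 0.86. CAP2 (-0.97), the severing protein GSN (-0.87) and TPM1 (-0.76) were the lowest.

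Myosins held 3 of 19 members that were higher by 2-fold or more, and 0 lower. MYH10, a non-muscle heavy chain, had 2283 and 5457 (1.26), the light chain MYL6 had 10217 and 23452 (1.20, second probe 1.10), and MYO1C had 460 and 1081 (1.23, second probe 0.61). MYH9, the other main non-muscle heavy chain of epithelia, lay at 0.08, and the list's median was 0.08. Kinesins had a median of 0.34 with 16 of 21 above 0, and the mitotic KIF11, KIF14 and KIF20B were the highest of those measured on both arrays, at 0.94, 0.89 and 0.80.

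Spindle and kinetochore genes were higher by small amounts and in large numbers, and replication genes by little more than housekeeping genes. In the spindle and kinetochore list 50 of 55 lay above 0, with a median of 0.42, beside 55.1% of all genes and a median of 0.05. MKI67, the proliferation marker, was the 1 counted as 2-fold higher, but it was above background only on the PI3K array and its bound is at least 1.81-fold. ASPM (0.96), DLGAP5 (0.87), TPX2 (0.84) and CCNB1 (0.77) followed. Replication genes had a median of 0.30, close to the 0.28 of common housekeeping genes, with 35 of 45 above 0 and none 2-fold apart. CCNE1, the cyclin of S-phase entry, lay at 0.92 and MCM4 at 0.66. Of 44 cyclins, kinases and inhibitors, CCNF had 508 and 1155 (1.18) and the inhibitor CDKN2B had 1216 and 532 (-1.19). CDKN1A lay at -0.69, CDKN2A at -0.44, CCND2 at 0.71 and CCND1 at -0.30.

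Keratins were lower with 1 exception. KRT15 had 2231 on the vector array and 470 on the PI3K array, and KRT13, of stratified mucosa, was at least 1.37-fold lower. KRT14 had 23640 and 13094 (-0.85), KRT5 had 17322 and 11735 (-0.56), KRT19 had 7165 and 3979 (-0.85), and KRT10, KRT6C and KRT16 lay at -0.68, -0.63 and -0.35. The simple-epithelial KRT8 lay at -0.10 and KRT7 at 0.12. The median of the 11 was -0.63, with 2 counted as 2-fold lower, and related keratins may share probe sequence.

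Among junction genes single members stood apart, in either direction and within the same structure. Of 14 tight-junction genes, 2 were at least 2-fold lower and 0 higher: CLDN1, and CGNL1, which links tight junctions to the cytoskeleton and has a bound of at least 1.36-fold. CLDN7 lay at -0.11, the scaffold TJP1 at 0.09 and CLDN12 at 0.62. Of 16 desmosome and hemidesmosome genes, 10 lay above 0 and the median was 0.06. The desmosomal cadherin DSG3 was at least 2.38-fold lower, and the plaque proteins PKP1 and JUP lay at 0.08 and -0.13 (other JUP probes 0.40 and 0.66). Among components of hemidesmosomes, which anchor the cell to its base, PLEC had 1092 and 2763 (1.34), ITGA6 had 1223 and 2435 (0.99) and ITGB4 had 4356 and 7182 (0.72), while DST lay at -0.05 and CD151 at -0.13. Other integrins lay between -0.67 for ITGAE and 0.48 for ITGA5, with none of 10 at least 2-fold apart.

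Among 34 matrix genes, 9 lay at least 2-fold below the vector array and 2 above it, with 10 above 0 and a median of -0.41. Besides CCN2, the collagens COL8A1 (1325 and 421, -1.66, dim second probe at least 2.42-fold lower) and COL5A1 (2272 and 764, -1.57) were low, as were EFEMP1 (8377 and 3059, -1.45), SPOCK1 (-1.45) and the fibulin FBLN1 (-1.24, second probe -0.79). Tenascin C, TNC, had 754 and 376, and MATN2 and MFAP2 were at least 2.20- and 1.53-fold lower. The higher members were THBS1 and the laminin chain LAMC3, at least 1.73-fold. Among 12 proteases and inhibitors of the matrix, MMP9 had 306.5 and 996, and its inhibitor TIMP1 had 7497 and 13664 (0.87). TIMP3, counted as 2-fold lower, was so near background on the vector array that no fold is given.

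Serine proteases held strong single members rather than a shift of the list. Beside KLK5, the kallikrein KLK10 was at least 2.50-fold lower. The urokinase PLAU lay at 0.82 and its receptor PLAUR at -0.76 (second probe -0.17), the inhibitor SLPI at -0.95 and the elastase inhibitor PI3 at 0.77. Of 15, 2 were at least 2-fold lower and 0 higher. Of 17 squamous differentiation genes, 3 were lower and 0 higher: CALML3 (2181 and 678, -1.69), KLF4 and KRT13. SPRR1A, a precursor of the cornified envelope, lay at 0.72. S100 proteins other than S100P lay between -0.54 for S100A3 and 0.55 for S100A13.

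Of 15 mesenchymal transition markers, 5 lay above 0, with a median of -0.20, or -0.30 over the 13 measured on both arrays. The list mixes epithelial members (CDH1, EPCAM, CD24) with mesenchymal ones (VIM, TWIST1, SNAI2), so its median gives no direction of transition. VIM lay at 0.09, CDH1 at -0.30, SNAI2 at -0.48, EPCAM at 0.79 and TWIST1 at 0.18. The 2 that were at least 2-fold lower were PDPN (809 and 304, -1.41) and CD24 (2822 and 1286, -1.13).

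Transcription factors of epithelial lineage leaned further to the low side than the other transcription factor lists described here: 9 of 23 were at least 2-fold lower, 0 higher and only 2 above 0, with a median of -0.52. FOXQ1 had 2958 and 580. PITX1, a hindlimb and epithelial homeobox factor, had 9290 and 3194 (-1.54), CEBPD had 9782 and 4263 (-1.20), SOX9 had 683 and 286 (-1.26) and the pioneer factor FOXA1 had 816 and 392 (-1.06). ELF3 was at least 2.51-fold lower, and ID1, ID3 and KLF4 complete the 9. TFAP2A (-0.18) and FOXA2 (-0.20) lay within the technical SD of 0.23, and KLF5 lay at 0.50. The list shares ID1, ID3, KLF4 and others with lists above, so these counts are not independent.

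HOX genes, which mark position along the body axis, had 9 of 11 above 0, with a median of 0.19. That is below the median of 0.22 over all probes and within the technical SD of 0.23. The list was dim, with a median mean log2 signal of 8.23 against 9.68 over all genes. HOXC8 had 449 and 931 (1.05), HOXC6 had 748 and 1305 (0.80) and HOXD1 was at least 1.67-fold higher, while HOXB7 lay at -0.61. Among 9 high-mobility group proteins, HMGA2 had 318 and 991 and HMGA1 had 5552 and 14892. Both open or bend chromatin and are high in embryonic tissue. Their second probes, dim in vector cells, were higher by at least 1.30-fold and at least 1.22-fold. HMGB1 lay at 0.82 and HMGN1 at -0.07. Of 17 histone genes, the damage-marked variant H2AX was the 1 at least 2-fold higher (406 and 837, 1.04), and histone copies share sequence.

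Imprinted genes, expressed from 1 parental copy, lay far apart from each other. SNRPN and SNURF, from the shared window printed above, were both low, SNURF at least 2.49-fold. H19, a maternal noncoding RNA, had 1120 and 501 (-1.16). The paternal PEG10 had 451 and 1111 (1.30), UBE3A, the neighbour of SNRPN that is expressed from the opposite parental copy in neurons, lay at 0.41, and GNAS at 0.27. Of 9 measured, 3 were at least 2-fold lower and 1 higher. In the Mediator complex MED24 stood alone at 1.34, with a second probe at 1.33, against a range of -0.91 for MED10 to 0.64 for CCNC in the other 20.

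Genes of glucose transport and glycolysis were mostly on the high side, with 23 of 26 above 0 and a median of 0.50; 3 were at least 2-fold higher and 1 lower. The brain-type aldolase ALDOC had 1265 on the vector array and 3453 on the PI3K array, and the glucose carrier SLC2A3 had 437 and 1136 (1.38). ENO2 was at least 1.92-fold higher. Single steps of the pathway followed: HK2 at 0.66, PFKM at 0.67, TPI1 at 0.80, PGK1 at 0.91, PKM at 0.69 (other probes 1.12 and 1.26) and LDHB at 0.75. SLC2A1, the main glucose carrier of epithelia, lay at -0.32, GPI at 0.07 and PDK4 is described above. Of 23 hypoxia-response genes, which overlap this list, BNIP3 had 3000 and 6689 (1.16) and NDRG1 lay at 0.96. VEGFA, however, lay at -0.19, BHLHE40 at -1.08, and the carbonic anhydrase CA12 was at least 2.60-fold lower.

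Fatty acid synthesis had 4 of 22 members at least 2-fold higher. ACLY, which makes cytosolic acetyl-CoA from citrate, had 936 and 2740, FASN had 3333 and 9639, the acetate-activating ACSS2 had 3468 and 8501 (1.29) and the desaturase SCD had 11264 and 26756 (1.25). A second probe of ACSS2, at background on the vector array, was at least 1.34-fold higher. ACACA, the committed step, lay at 0.61 and ELOVL6 at 0.59. SCD5, a second desaturase, was at least 2.02-fold lower. The median of the list was 0.23 and 18 lay above 0.

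Nucleotide synthesis had 25 of 30 above 0 and a median of 0.38. The salvage enzyme CDA had 635 and 1865, CAD, which starts pyrimidine synthesis, lay at 0.90, ATIC at 0.71 and PAICS at 0.58, against -0.34 for IMPDH2 and -1.24 for NT5E. Genes of the ATF4 amino acid response were on the low side, with 7 of 26 above 0, a median of -0.28, and 3 at least 2-fold lower. These were the stress protein NUPR1 (1980 and 569, -1.80, second probe -1.86), the glycine carrier SLC6A9 (-1.31) and ATF3. The biosynthetic members ASNS, PSAT1 and SHMT2 lay at 0.14, 0.01 and 0.11.

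Aldo-keto reductases and aldehyde dehydrogenases had 6 of 18 at least 2-fold lower and 1 higher. ALDH3A1 had 5701 and 1191, AKR1C2 had 1975 and 612 (-1.69), AKR1C3, which makes androgens, had 1808 and 711 (-1.35), ALDH3A2 lay at -1.16 (second probe -0.66) and AKR1B10 was at least 2.22-fold lower. AKR1B15 counts as the last, but was too dim for a fold, and AKR1C copies share sequence. ALDH1A3, which makes retinoic acid, was the higher one, with 8698 and 17508 (1.01). The median was -0.14, and 0.09 over the 14 measured on both arrays. Of 14 cytochromes P450, UGTs and sulfotransferases, 4 were at least 2-fold lower: UGT1A6, the epoxygenase CYP2J2 (824 and 336, -1.29), CYP4X1 (at least 1.32-fold) and UGT2B7 (at least 1.16-fold). In the glutathione and NRF2 list, GSTO1 lay at 0.92 and PRDX1 at 0.81, against -0.76 for SRXN1 and -0.70 for NFE2L2, and the 1 of 38 at least 2-fold lower, GPX2, was too dim for a fold.

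Solute carriers split evenly: 74 of 147 lay above 0, 3 were at least 2-fold higher (SLCO4A1, SLC2A3, SLC39A10) and 4 lower. The latter were the glutamate carrier SLC1A3 (1576 and 466, -1.76), the copper carrier SLC31A2 (1614 and 710, -1.19), SLC6A9, and SLC43A3, at least 1.76-fold.

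Large families of general cell machinery differed little between the arrays, and mostly to the high side. Common housekeeping genes, on which nothing was scaled here, had a median of 0.28, from -0.13 for SDHA to 0.91 for PGK1, so a list median of that size is no more than theirs. Proteasome subunits had a median of 0.25 (33 of 40 above 0), ribosome biogenesis 0.28 (37 of 48), cytosolic ribosomal proteins 0.17 (59 of 70), mitochondrial ribosomal proteins 0.11 (50 of 74), respiratory complex I 0.12 (17 of 26), and the other respiratory complexes 0.18 (33 of 45). None of their members was 2-fold apart. The proteasome subunits PSMB9 (1647 and 699, -1.24) and PSMB8 (-0.48) were set aside with the interferon list and are not counted here. Splicing factors had a median of 0.22, and 2 of 110 were higher by 2-fold or more and 1 lower. The higher ones were HNRNPDL (579 and 1321, 1.19) and the probe of HNRNPA1P10, a pseudogene copy that may read HNRNPA1, at 1.16, and the lower one was SNRPN at -2.78. Among chaperones, with a median of 0.19, the co-chaperone STIP1 had 1305 and 2866 (1.14) and HSP90AA1 lay at 0.72, with a dim second probe that gives no fold. In the ER folding list XBP1 lay at -0.95 and HSP90B1 at 0.70, with none of 33 at least 2-fold apart.

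Nuclear pore and transport genes had a median of 0.15 and chromatin-modifying enzymes 0.11, with none 2-fold apart in either. SEH1L (0.94, second probe 0.51) and IPO9 (0.88) were the highest of the transport genes, and ARID3A (0.94) and CHD7 (0.91) of the chromatin genes. Zinc finger genes were on the low side among the large families, with 94 of 249 above 0. Their median was -0.11, or -0.06 over the 191 measured on both arrays, and -0.02 with dim genes at their bound. Without the detection filter it changed sign. The 5 at least 2-fold lower were ZNF613 (-1.10), ZNF428 (-1.05), ZBTB16 (at least 2.14-fold), ZNF285 (at least 1.43-fold) and ZNF502 (at least 1.26-fold). The other 37 lists with at least 3 measured genes had medians between -0.38 and 0.28.

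**Figure D5:**
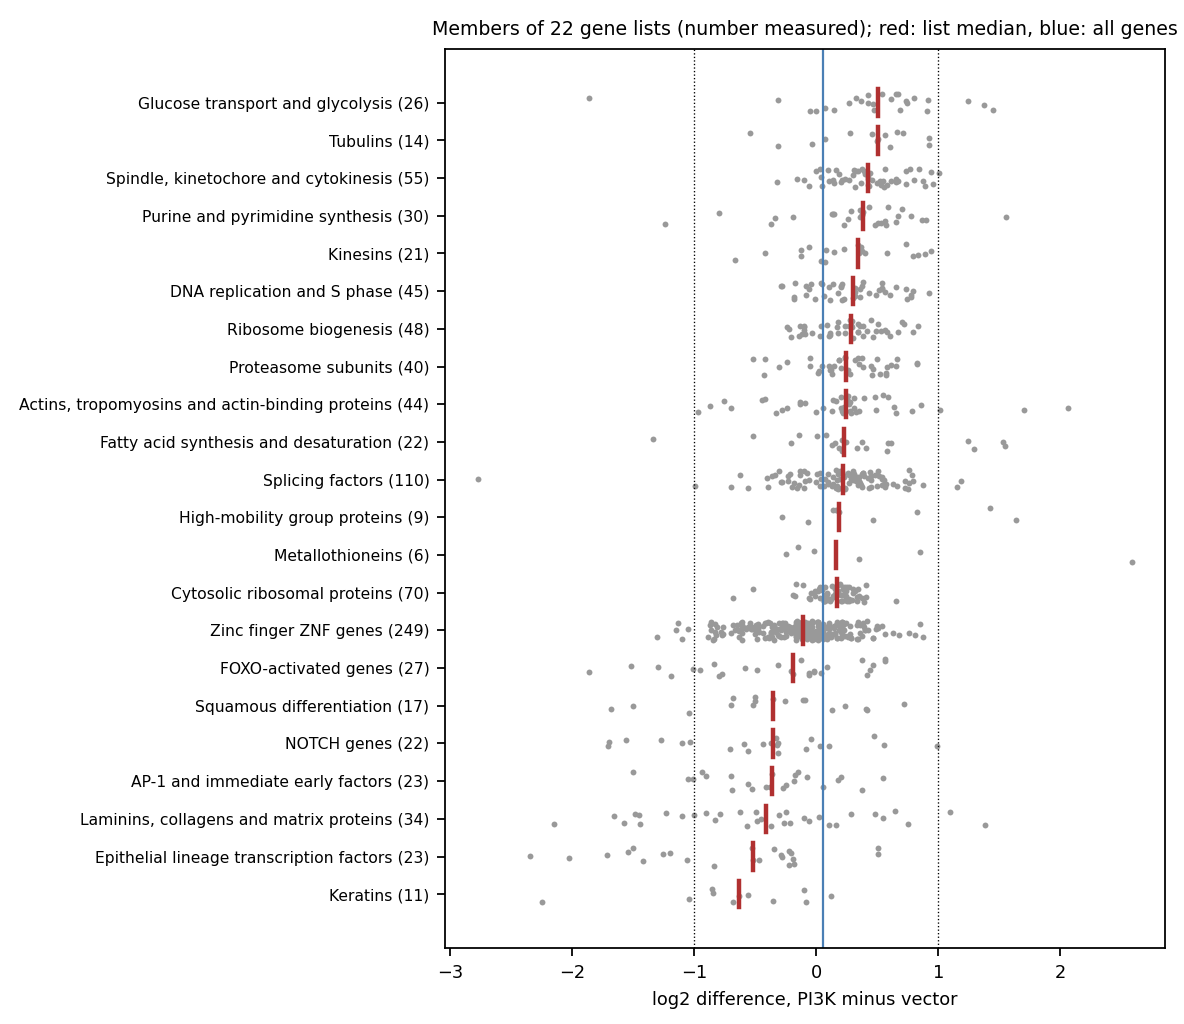
Log2 difference, PI3K minus vector, of each measured member (grey points, 1 a gene) of 22 gene lists, with the list median in red, the median of all genes in blue and dotted lines at 2-fold. Glycolysis and tubulins sit highest, with medians of 0.50, and keratins lowest at -0.63.

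Markers of the labelled cell type were present on both arrays. All 17 basal prostate markers were above background on each, and their signals summed to 104811 in vector cells and 83870 in PI3K cells. Such a sum is led by the brightest probes, such as that of KRT14, and 7 of the 17 markers lay above 0. The median of the 17 was -0.49, with KRT15, NOTCH1 and DKK3 at least 2-fold lower. That median is the value of LAMB3, and the next marker above it was DST at -0.05. With the mean of a gene's probes the median was -0.05, so it depends on the choice of probe. ITGA6 and ITGB4 were higher by the values given above. CAV2 gave -0.50 and, from a second probe, 0.65. Of 19 luminal markers 5 were above background on each array and all 5 lay below 0, from -1.13 for CD24 to -0.10 for KRT8. None of 12 neuroendocrine markers was above background on the vector array and 3 were on the PI3K array: SCG5, ENO2 and UCHL1, the last at least 1.25-fold higher. All 3 were kept through the PI3K array alone, so the rule favours higher values there. On the vector array SCG5 (230.6) and UCHL1 (233) were just under 233.3, the lowest signal above background. Endothelial markers were above background in 0 of 10 on either array, fibroblast and muscle markers in 1 of 14 and leukocyte markers in 2 of 17 on each. LCP1, one of the leukocyte markers, was the high one. Whether these marker levels have a part in the lower keratin, lineage factor and matrix values was not tested.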

How the data were processed

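RNA was labelled as biotinylated cRNA and read on Illumina arrays, with GenomeStudio as the software per the submitters' processing notes. The linear signal intensity values were deposited without normalisation, per the file headers. The detection value beside each signal is a fraction that the authors deposited as a detection p-value, but it rises with the signal (rank correlation 0.976). It was therefore read as 1 minus that p-value. The authors also deposited log2 values for all arrays. On the arrays that both tables name, the log2 values differ as the signals do once each array is divided by its 75th percentile. The origin of a constant in each probe is unknown. The PI3K column, which no named scanner column allows to be checked, was assumed to be made alike. Column medians are -0.16 (vector) and 0.04 (PI3K), and the median difference over all probes is 0.22. In the scanner table, 2 columns of per-sample values name no sample and were not used.

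The PI3K signal was rebuilt as the vector signal times 2 to the power of the log2 difference. The fixed limit for that array, between 283.9 and 284.03, is thus a substitute for its own detection values, and the vector array's lowest signal above background was 233.3. Signal over background, with 1 array a group, limits the precision, and counting intervals do not apply. A gene takes its brightest kept probe, a call is 2-fold, and no test was made. A dim gene's bound is its bright signal over the higher of the other array's limit and the probe's own signal there. Of the 24526 probes, 2692 are unnamed and 0 have several symbols; symbols came from the platform annotation, and 21813 matched RefSeq gene IDs. Genes of the interferon (98 on the array) and sterol (24) lists stay out of every other list. Y-linked genes and XIST are in no list and are not named.

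The members and the 105 gene lists, drawn from nomenclature and general knowledge, were chosen with earlier results of these data known. The myosin list was corrected, and the 64 lists described were picked, after values were seen. Named are the 15 highest and 15 lowest genes above background on both arrays, the 8 largest bounds each way, list members at least 2-fold apart, otherwise members with the largest differences, all PI3K pathway and metallothionein genes, and genes of interest for their role, these last chosen after their values were seen. Alternatives were limma 3.58.1 normexp background correction (offset 50) with quantile normalisation, median centring, the mean of a gene's probes, other detection limits and bounds. Subtracting a running median over 401 genes ordered by signal was added after seeing the data. Python 3.11.15 and R 4.3.3 were used, and the steps were tested on simulated data.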

Additional observations from a re-analysis of the deposited data

How the results depend on the processing

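No paired analysis was possible because each group has 1 array, and for the same reason no replicate could be left out. Across the alternatives, 72 to 106 genes were at least 2-fold higher, against 98. The genes at least 2-fold lower numbered 259 to 363, against 329, except that 202 were counted when only genes above background on both arrays were used. The median over all genes ran from 0.00 to 0.20 and the technical SD from 0.23 to 0.24. Of 151 named genes at least 2-fold apart, 147 stayed so with normexp and quantile normalisation, 144 with median centring, 145 with the mean of a gene's probes, 143 with the signal trend removed and 127 with dim genes at their bound, and 0 changed sign.

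Without the detection filter, which brings in genes at background, 17 of the 64 list medians changed sign. Of these, 13 moved by over the technical SD of 0.23. TGF-beta genes became 0.11, IGF-binding proteins 0.22, phosphoinositide enzymes 0.19 and keratins 0.18. Claudins and junction plaque became 0.15, matrix proteins 0.19, metalloproteinases 0.29, and kallikreins and other serine proteases 0.28. Squamous genes became 0.14, mesenchymal transition markers 0.11, and aldo-keto reductases and aldehyde dehydrogenases 0.11. Cytochromes P450 became 0.25 and luminal markers 0.17. The medians of EGF, WNT, interleukin and zinc finger genes moved by no more than the SD. The squamous median was -0.12 with dim genes at their bound, and the basal median was -0.05 with the mean of a gene's probes. Under the other alternatives 1 to 6 list medians changed sign, each within 0.14 of 0 as reported. With both arrays above background, aldo-keto reductases gave 0.09, WNT genes 0.08, Mediator genes -0.13 and ER folding genes -0.04. No value here covers the error of a list median or the spread between cultures.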
